A study of Mus musculus with 6 samples.

Results

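The complement cascade and its regulators were followed through mouse liver tumours that did or did not carry the Alb/AEG-1 transgene (AEG-1, astrocyte elevated gene-1). A list of 30 genes was set by name: the recognition molecules, proteases and convertase components of the classical, lectin and alternative pathways, the terminal components, the soluble and membrane-bound regulators, and the receptors for C3a and C5a. Of these, 27 had a probe set that the platform annotation assigns to that gene alone, out of 12393 genes measured in this way. C3, C4b and Cfd had none and are not analysed here. Where a gene had several probe sets, the brightest by its mean over the 6 arrays stood for it; the 27 genes had 41 probe sets in all.

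Each array held RNA from liver tumour of a single male mouse, 3 wild-type and 3 Alb/AEG-1 (called transgenic from here on), with CD-1 given as the background strain for both groups. All 6 mice had received 10 µg of N-nitrosodiethylamine (DEN, a liver carcinogen) per g body weight by intraperitoneal injection at 14 days of age, and tumours were collected at 28 weeks, so both groups carry chemically induced tumours and no untreated or normal liver is among them. The transgene was injected into embryos of B6CBAF1/J matings, and its name refers to the albumin promoter, which is active in hepatocytes. The labels do not say how many founder lines were used. All values are log2 levels as deposited, where 1 unit is a doubling. The number of arrays, 3 per group, limits the precision. Hepatocyte transcripts were bright on every array, with a mean over 10 hepatocyte markers between 13.72 and 13.84.

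The labels also give each mouse an animal number. These fall into a lower range (transgenic replicates 1 and 2 with wild-type replicate 1) and a higher range (transgenic replicate 3 with wild-type replicates 2 and 3). Nothing in the labels calls the ranges a batch. Among all genes, 16.4% had the ranges entirely apart, against 15.1% for the genotypes, so differences are also given within each range. Only 1 of 22626 probe sets passed limma's test at an adjusted p of 0.05 (0.00442%), and it was no complement gene.

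Complement is a set of plasma proteins that mark particles for uptake, recruit leukocytes and form pores in membranes. C1q (classical pathway) and mannose-binding lectins (lectin pathway) sense their targets and activate serine proteases, which assemble an enzyme that cleaves C3; the alternative pathway amplifies that step. Most of the soluble components are secreted by hepatocytes, while C1q and properdin come mainly from macrophages and other myeloid cells. A liver tumour sample therefore holds transcripts of both sources.

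The macrophage-made and the hepatocyte-made genes differed in size of difference over all 6 arrays, but not in the same way in both ranges of animal numbers. The 4 macrophage-made members (C1qa, C1qb, C1qc and Cfp) were all higher in transgenic tumours by their group means, with a median difference of 0.38 log2 and a range of 0.31 to 0.76. The 18 measured hepatocyte-made members lay close to 0, with a median of 0.07, a range of -0.11 to 0.22, 12 positive and 6 negative. The median over all genes was -0.01. The macrophage-made mean less the hepatocyte-made mean, taken on each array, differed by 0.41 (transgenic minus wild type) over all arrays, by 0.93 among the higher animal numbers and by -0.12, the opposite direction, among the lower. The hepatocyte-made mean itself differed by 0.17 among the lower and by -0.11 among the higher numbers. The macrophage-made median was 0.24 without wild-type replicate 2. The hepatocyte-made median was 0.02 without wild-type replicate 1 and also 0.02 without transgenic replicate 2. The difference between the medians, 0.31 with all arrays, was 0.50 without wild-type replicate 1, 0.19 without wild-type replicate 2 and 0.20 without transgenic replicate 3. None of the 27 genes passed when adjusted over all probe sets (limma, adjusted p between 0.596 and 0.991). At an unadjusted limma p under 0.05 there were 2 of 27, C1qb and C1qc, a share of 7.41% against 8.33% of all genes, so the number of such genes was near the background. Both were higher in transgenic tumours, as were 3.86% of all genes, and 0 of 27 had such a p in the lower direction, against 4.47%. The count lay between 1 and 5 of 27 when each array was left out in turn: 1 without wild-type replicate 2 or 3 or transgenic replicate 2, 4 without wild-type replicate 1, 3 without transgenic replicate 1 and 5 without transgenic replicate 3. A share of all genes was taken only for the fit without transgenic replicate 3, where 4.45% were higher at such a p. The other counts have no background beside them and are not read as a result about these genes. The groups did not overlap in 3 of 27 genes (C1qb, Serping1 and Vtn), each with transgenic above, against 6.77% of all genes; 0 of 27 lay below, against 8.31%.

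**Figure D1:**
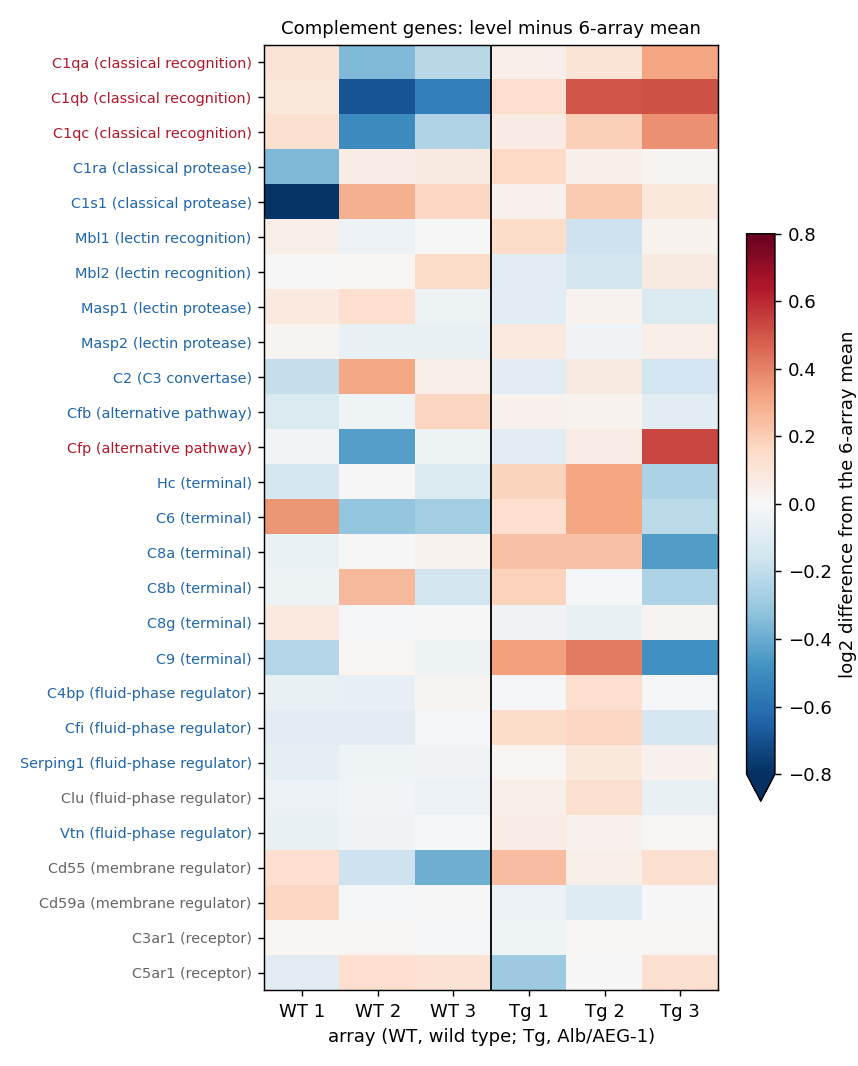
Level of each of the 27 complement genes (rows, by role) on each of the 6 arrays (columns; WT, wild type; Tg, transgenic), as the log2 difference from that gene's 6-array mean; gene names are red for macrophage-made, blue for hepatocyte-made and grey for other members. The C1q rows are lowest in wild-type replicates 2 and 3, C9, C8a and Hc are highest in transgenic replicates 1 and 2, and the darkest cell is C1s1 in wild-type replicate 1, at 10.28.

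**Figure D2:**
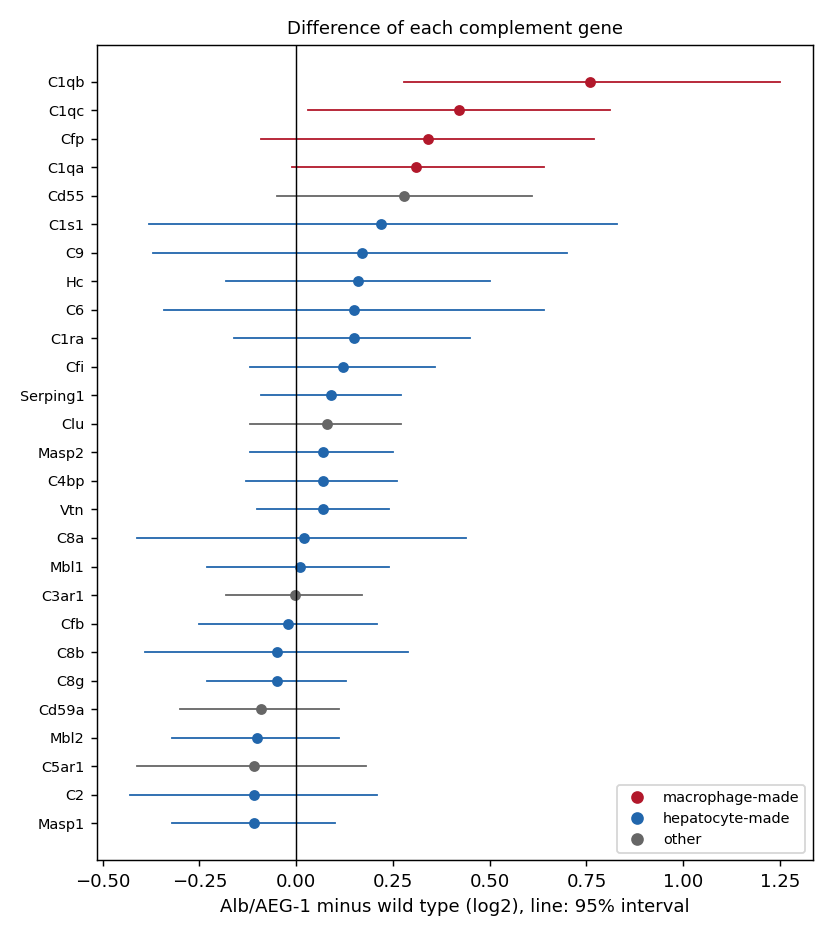
Difference in log2 level (transgenic minus wild type, n = 3 per group) of each of the 27 genes with its 95% interval from the limma fit, ordered by size and coloured by main source. The 4 macrophage-made genes have the highest values, from 0.31 to 0.76, and the hepatocyte-made genes lie between -0.11 and 0.22.

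Of the C1q chains, C1qb and C1qc had the largest differences among the 27 genes, and C1qa followed Cfp. C1q is a hexamer of trimers, each built from an A, a B and a C chain, and it binds antibody complexes, dying cells and other surfaces. C1qb, the B chain, was at 8.05, 7.27 and 7.41 in the wild-type tumours and at 8.09, 8.46 and 8.47 in the transgenic tumours. Every transgenic value thus lay above every wild-type value, but wild-type replicate 1 was only just below transgenic replicate 1. The difference was 0.76 ± 0.21 log2 (SE, n = 3 per group; 1.7-fold), with an unadjusted limma p of 0.00713 and an adjusted p of 0.596. The other C1qb probe sets, both of a type that may bind related transcripts, differed by 0.40 and 0.39.

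C1qc, the C chain, was at 7.46, 6.82 and 7.09 in wild-type and at 7.40, 7.52 and 7.70 in transgenic tumours, a difference of 0.42 ± 0.17 (limma, adjusted p = 0.611). C1qa, the A chain, was at 8.05, 7.59 and 7.72 in wild-type and at 7.98, 8.05 and 8.26 in transgenic tumours, a difference of 0.31 ± 0.14 (limma, adjusted p = 0.619). For both chains wild-type replicate 1 overlapped the transgenic values, and wild-type replicates 2 and 3 lay below all of them. In limma without wild-type replicate 1 the C1qa difference was 0.44, with an unadjusted p under 0.05. C1qc no longer had an unadjusted p under 0.05 in limma once the range of animal numbers was a term (0.38), nor without wild-type replicate 2 (0.27), wild-type replicate 3, transgenic replicate 2 or transgenic replicate 3. The C1qb difference on its brightest probe set lay between 0.61 and 1.0 without any 1 array, with an unadjusted limma p under 0.05 each time. On the mean of its probe sets C1qb differed by 0.52, also with an unadjusted limma p under 0.05. The C1qb probe set with a difference of 0.39 had an unadjusted limma p of 0.0832.

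Cfp encodes properdin, the plasma protein that stabilizes the alternative pathway convertase. It was at 6.64, 6.22 and 6.62 in wild-type and at 6.58, 6.72 and 7.2 in transgenic tumours. transgenic replicate 3 was the highest and wild-type replicate 2 the lowest, while the other 4 arrays lay together, and the groups overlapped. The difference was 0.34 ± 0.18 (limma, adjusted p = 0.644, 95% interval -0.09 to 0.77). It was 0.16 with transgenic replicate 3 left out, 0.20 with wild-type replicate 2 left out, and 0.47 with transgenic replicate 1 left out, where alone the unadjusted limma p was under 0.05.

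**Figure D3:**
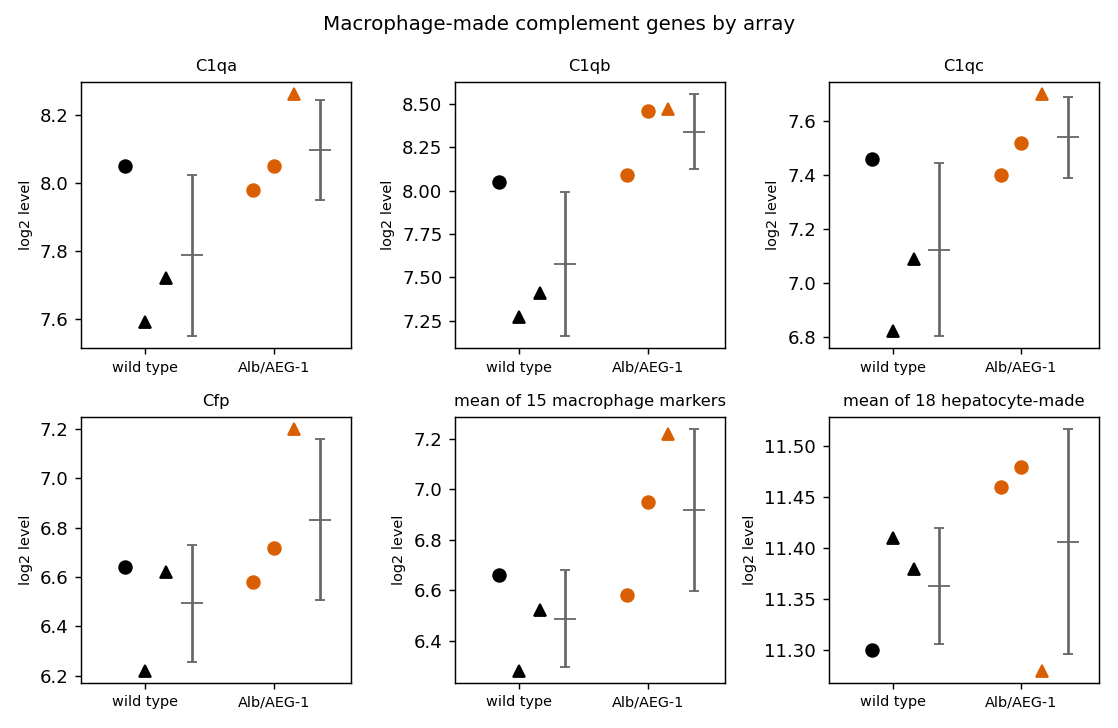
Log2 level on each array of C1qa, C1qb, C1qc and Cfp, of the mean of 15 macrophage markers and of the mean of the 18 hepatocyte-made members; circles are the lower and triangles the higher animal numbers, black is wild type, orange is transgenic, and bars are the group mean ± SD (n = 3); the axes differ between panels and do not start at 0. The black triangles are low in every C1q panel and in the macrophage panel, and in the hepatocyte-made panel the orange triangle, at 11.28, is the lowest point.

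Macrophage markers moved with these genes. Of 15 measured markers of macrophages and Kupffer cells outside the complement list, 15 had a positive difference, against 5925 of all 12393 genes. Within the higher animal numbers 15 were positive, and within the lower 8. The median difference of these markers over all arrays was 0.39, next to 0.38 for the macrophage-made complement genes. The marker list was chosen with earlier results of these data known, so these counts and medians are no independent test. Of these markers, 4 had an unadjusted limma p under 0.05, against 3.86% of all genes higher at such a p. An adjusted p under 0.05 was reached by 0 of these markers. Their mean level per array ranged from 6.28 to 6.66 in wild-type and from 6.58 to 7.22 in transgenic tumours. Clec4f, a lectin of Kupffer cells, was measured at 7.53 to 7.87 in wild-type and 7.61 to 8.23 in transgenic tumours, and Adgre1, which encodes the F4/80 antigen, at 6.46 to 6.86 and 6.73 to 7.14. The lowest marker value on any array was 4.19. Markers of other cells did not share that shift by their medians. The median difference was -0.08 for 8 neutrophil markers (another source of properdin), -0.05 for 6 endothelial and 0.01 for 8 stellate cell and fibroblast markers. For 5 T and NK cell markers it was -0.11, for 3 B cell 0.11, for 4 cholangiocyte -0.0028 and for 4 adipocyte markers -0.01. Wild-type means were under the median probe set (5.83) for neutrophil (4.70), T and NK cell (5.04), B cell (4.51), cholangiocyte (4.85) and adipocyte (3.93) lists. A shift could have been missed in these. Lyve1 differed by 0.52, while 4 of 6 endothelial markers were negative. Col3a1 differed by 0.39, while 4 of 8 stellate cell and fibroblast markers were negative. The neutrophil markers were split, with 3 of 8 positive and 5 negative. S100a8 and S100a9 differed by 0.53 and 0.36, and Mpo and Csf3r by -0.35 and -0.28. In bulk tissue, more macrophages and more RNA per macrophage cannot be told apart.

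The mean of the 3 C1q chains less the mean of the 15 markers, taken on each array, was 1.19, 0.95 and 0.88 in wild-type and 1.25, 1.06 and 0.93 in transgenic tumours. The groups overlapped throughout, and the difference was 0.07, compared with 0.50 for the C1q chains by themselves. With Cfp included, the same difference was 0.03. This comparison was added after the values were seen. The markers' part in the C1q difference was otherwise not tested.

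The macrophage-made difference was much larger within the higher than within the lower animal numbers. Within the higher range the mean over C1qa, C1qb, C1qc and Cfp was 0.82 higher in transgenic replicate 3 than in wild-type replicates 2 and 3, and within the lower range transgenic replicates 1 and 2 were 0.05 above wild-type replicate 1. For C1qb the values were 1.13 and 0.23, for C1qc 0.75 and 0.01, for C1qa 0.61 and -0.04, and for Cfp 0.78 and 0.01. The macrophage markers behaved alike, with 0.82 within the higher and 0.11 within the lower range. Each range has a group of a single array, so these values have no replicate check. The lower range rests on wild-type replicate 1, whose macrophage-made mean was 7.55, against 6.98 and 7.21 in wild-type replicates 2 and 3. The mean was 7.51 and 7.69 in transgenic replicates 1 and 2. With the range of animal numbers as a term in the fit, the macrophage-made median difference was 0.39. For each gene that fit averages the differences within the ranges. It therefore cannot show whether the difference holds in both.

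**Figure D4:**
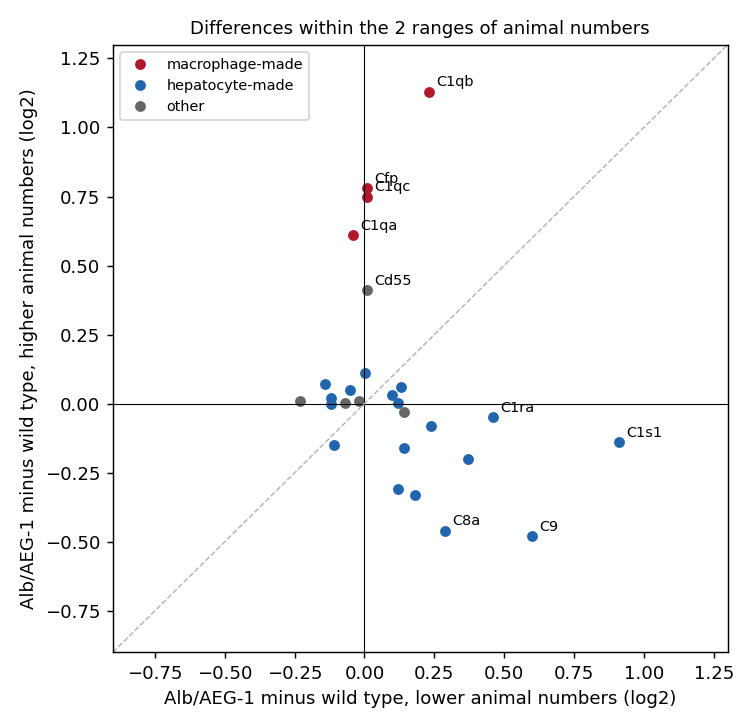
Difference of each gene (transgenic minus wild type, log2) within the lower animal numbers (x axis) and within the higher animal numbers (y axis), coloured by main source; the dashed line marks equal differences. C1qa, C1qc and Cfp lie between -0.04 and 0.01 on the x axis and C1qb at 0.23, with all 4 between 0.61 and 1.13 on the y axis, while C9, C8a, C1ra and C1s1 are positive on the x axis and negative on the y axis.

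C1qb, C1qc and C1qa are neighbours, in that order, with no other protein-coding gene between them in the RefSeq gene table of GRCm38.p6, and the 3 chains had the same lowest array (wild-type replicate 2) and the same highest array (transgenic replicate 3). The 250 bases before the RefSeq start of C1qb and C1qc, and of Cfp for comparison, are shown because these macrophage-made genes have the largest differences. They are given 5′ to 3′ on the strand of the gene, from RefSeq on GRCm38.p6: C1qb at chr4:136886201-136886450, C1qc at chr4:136892915-136893164 and Cfp at chrX:20931556-20931805, all on the minus strand. Capitals mark matches, on either strand, to 4 motifs: GAGGAAGT for PU.1, a factor of myeloid cells, TTNCNNAA for the C/EBP family, GTTAAT for the hepatocyte factor HNF1 and the interferon-stimulated response element (ISRE).
C1qb: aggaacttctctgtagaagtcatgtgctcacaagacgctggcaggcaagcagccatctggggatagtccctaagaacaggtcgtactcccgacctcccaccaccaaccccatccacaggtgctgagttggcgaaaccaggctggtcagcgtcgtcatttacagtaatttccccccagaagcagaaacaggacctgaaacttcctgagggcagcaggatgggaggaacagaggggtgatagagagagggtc
C1qc: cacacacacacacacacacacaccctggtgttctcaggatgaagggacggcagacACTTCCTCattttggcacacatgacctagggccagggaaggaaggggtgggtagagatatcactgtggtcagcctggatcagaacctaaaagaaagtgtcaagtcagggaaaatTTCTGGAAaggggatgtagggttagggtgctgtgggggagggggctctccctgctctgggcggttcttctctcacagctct
Cfp: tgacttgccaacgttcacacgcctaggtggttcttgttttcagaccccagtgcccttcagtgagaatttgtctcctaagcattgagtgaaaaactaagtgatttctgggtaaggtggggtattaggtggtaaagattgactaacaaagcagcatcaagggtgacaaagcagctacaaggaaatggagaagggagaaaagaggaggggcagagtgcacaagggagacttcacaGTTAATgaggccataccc

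The C1qc window held a PU.1 match at -195 to -188 from the start and a C/EBP match at -81 to -74, both as the reverse complement. The Cfp window held the HNF1 letters at -18 to -13, and the C1qb window held none of the 4 motifs. The PU.1 letters occur in 2.44% of 32851 windows of 250 bases before RefSeq starts, those of C/EBP in 36.8%, of HNF1 in 6.43% and of the interferon element in 2.98%. A match describes the letters only. C1qa has no entry in the promoter table used here.

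Among the classical proteases, C1ra and C1s1, which form the enzymatic part of the C1 complex, wild-type replicate 1 stood apart. C1s1 was at 10.28 in that tumour and at 11.35 and 11.23 in the other wild-type tumours, against 11.10, 11.27 and 11.15 in transgenic tumours. The difference was 0.22 ± 0.26 (limma, adjusted p = 0.804), and without wild-type replicate 1 it was -0.11. C1ra, which lies next to C1s1 in the gene table, was also lowest there, at 10.04, with its other 5 values between 10.42 and 10.56 and a difference of 0.15 ± 0.13. Both genes have a close relative in the mouse (C1rb and C1s2), and the C1s1 probe set is of a type that may bind related transcripts.

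In the lectin pathway all differences were small. Mbl1 and Mbl2, the mannose-binding lectins, differed by 0.01 ± 0.10 and -0.10 ± 0.09, and their proteases Masp1 and Masp2 by -0.11 ± 0.09 and 0.07 ± 0.08. The 95% intervals of these 4 genes lay between -0.32 and 0.25 in total, so larger shifts than these bounds fell outside them. The 5 Masp1 probe sets had negative differences, between -0.11 and -0.0025, while the second Masp2 probe set differed by -0.09, opposite to the first. Mbl1 was within 11.02 and 11.33 on all 6 arrays.

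The convertase components that could be measured, C2 and Cfb, also overlapped between the groups. C2, the protease of the classical C3 convertase, was at 9.20, 9.70 and 9.44 in wild-type and at 9.30, 9.46 and 9.24 in transgenic tumours (-0.11 ± 0.14). Cfb, the corresponding protease of the alternative pathway and an acute phase gene in liver, was at 11.33, 11.41 and 11.62 and at 11.48, 11.47 and 11.36 (-0.02 ± 0.10, 95% interval -0.25 to 0.21). The neighbouring positions of C2 and Cfb in the gene table did not go with a shared order of the arrays: C2 was highest in wild-type replicate 2 and Cfb in wild-type replicate 3. Among 10 acute phase genes listed as markers, 9 had a positive difference and 1, Orm3, a negative one (-0.47). An unadjusted limma p under 0.05 was met by 4 (Saa1, Saa2, Orm2 and Lcn2), all higher, as for 3.86% of all genes. Saa1 was at 9.26 to 9.39 in wild-type and 9.70 to 11.23 in transgenic tumours. The groups did not overlap in 4 of the 10 (Saa1, Saa2, Lcn2 and Hpx), against 6.77% of all genes with transgenic above. They overlapped in the others, Orm2 included, and in Cfb.

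Among the terminal components, C9, C8a and Hc varied more between transgenic tumours than between the genotypes. C6 varied more between wild-type tumours (SD 0.38, against 0.27 in transgenic), C8b alike in both (0.21 and 0.22) and C8g little (0.05 and 0.04). The terminal components assemble into the membrane attack complex. Hc encodes C5, which is cleaved to start it, C6 and the C8 chains build the core, and C9 forms the pore. C9 was at 12.21, 12.46 and 12.40 in wild-type tumours and at 12.77, 12.86 and 11.95 in transgenic tumours. C8a, the alpha chain of C8, was at 12.14, 12.20 and 12.22 and at 12.43, 12.43 and 11.75. Hc was at 12.04, 12.17 and 12.06 and at 12.35, 12.49 and 11.92. In these 3 genes transgenic replicates 1 and 2 lay above every wild-type tumour and transgenic replicate 3 below every one.

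The differences between genotypes were accordingly small beside their errors: 0.17 ± 0.23 for C9, 0.02 ± 0.18 for C8a and 0.16 ± 0.15 for Hc (limma, adjusted p between 0.761 and 0.984). Cfi, the protease that degrades C3b and C4b, showed the same order, at 12.64, 12.63 and 12.71 in wild-type and 12.87, 12.89 and 12.59 in transgenic tumours (0.12 ± 0.10). Without transgenic replicate 3 the differences were 0.45 ± 0.11 for C9, 0.32 ± 0.10 for Hc, 0.24 ± 0.09 for C8a and 0.22 ± 0.09 for Cfi, each with an unadjusted limma p under 0.05 and an adjusted p between 0.505 and 0.583. With C1qb these were 5 of 27 genes (18.5%), against 4.45% of all genes higher in that fit, whose transgenic arrays both lie in the lower animal numbers. transgenic replicates 1 and 2 lay above all other arrays in 6 of 27 genes (Hc, C8a, C9, Cfi, Clu and Vtn), against 9.6% of all genes. This pattern was noticed in the data, and C9, Hc, C8a and Cfi were lowest in the very array then left out. Their p-values without that array, and the shares of genes given here, are therefore not a test.

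**Figure D5:**
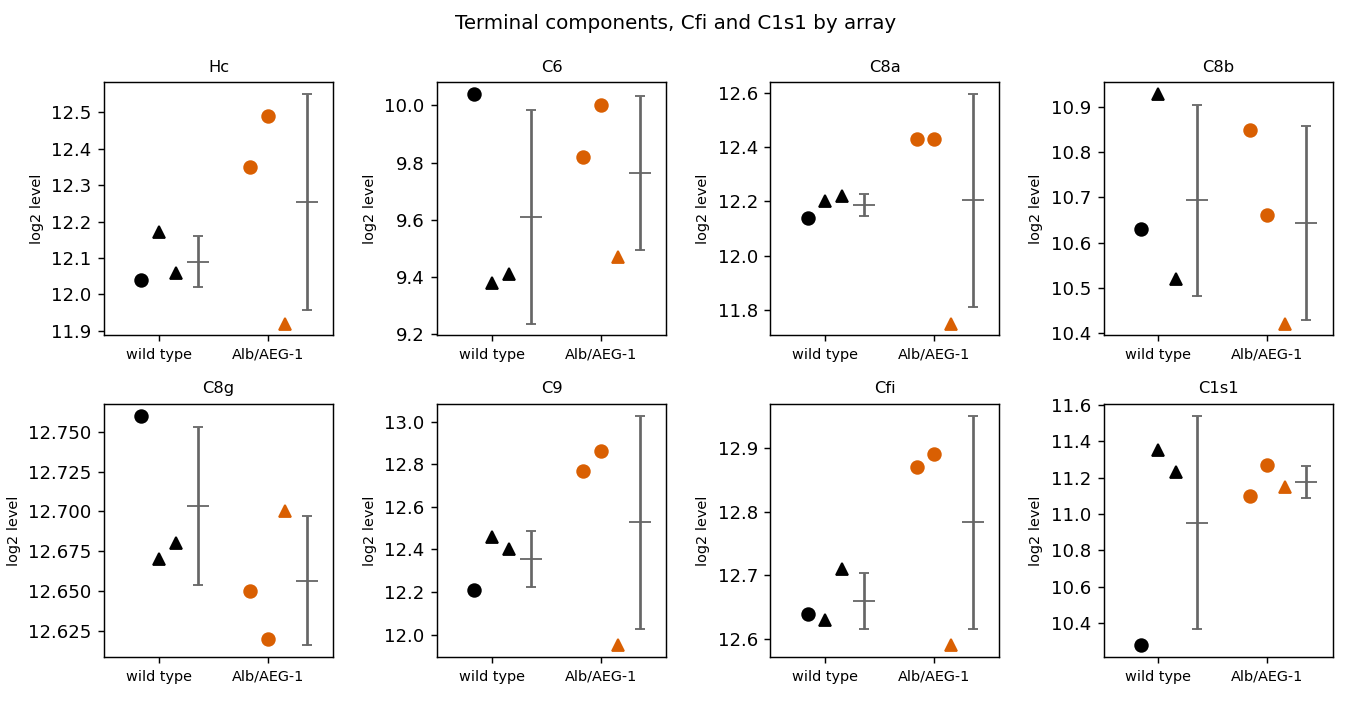
Log2 level on each array of the 6 terminal components, Cfi and C1s1; circles are the lower and triangles the higher animal numbers, black is wild type, orange is transgenic, and bars are the group mean ± SD (n = 3); the axes differ between panels and do not start at 0. In the Hc, C8a, C9 and Cfi panels the orange circles are the highest points and the orange triangle the lowest, and in the C6 panel all circles, from 9.82 to 10.04, lie above all triangles, from 9.38 to 9.47.

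The mean of the hepatocyte markers was also highest in transgenic replicates 1 and 2, over a narrower span, and transgenic replicate 3 was not the lowest: it was 13.84, 13.80 and 13.74 in transgenic replicates 1, 2 and 3 and 13.77, 13.72 and 13.79 in wild-type tumours. The 10 markers did not share this order. In 4 of the 10, transgenic replicates 1 and 2 lay above every wild-type tumour. Alb lay below, at 14.62 and 14.59 in these replicates and at 14.63 to 14.64 in wild-type tumours. C8b, the neighbour of C8a in the gene table, was lowest in transgenic replicate 3 at 10.42 but highest in wild-type replicate 2 at 10.93. C8g, the gamma chain of C8, was within 12.62 and 12.76 on all arrays. The 250 bases before the RefSeq starts of C8a (chr4:104876399-104876648, minus strand) and C9 (chr15:6445096-6445345, plus strand) on GRCm38.p6 are shown, with the same motifs in capitals, since these genes have the widest spread among the terminal components with that order.
C8a: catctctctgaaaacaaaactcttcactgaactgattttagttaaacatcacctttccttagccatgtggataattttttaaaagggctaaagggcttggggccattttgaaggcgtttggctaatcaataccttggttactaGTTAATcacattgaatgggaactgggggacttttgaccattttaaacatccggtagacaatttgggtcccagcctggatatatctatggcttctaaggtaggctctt
C9: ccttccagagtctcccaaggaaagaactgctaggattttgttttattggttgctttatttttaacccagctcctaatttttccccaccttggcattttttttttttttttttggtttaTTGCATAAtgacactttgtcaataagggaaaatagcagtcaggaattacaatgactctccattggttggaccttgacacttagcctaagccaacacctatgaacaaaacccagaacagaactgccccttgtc

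The C8a window held the HNF1 letters, and the C9 window a C/EBP match at -132 to -125. Over the 20 measured members with an entry in the promoter table, the HNF1 letters occurred in 7 (C4bp, Hc, C8b, C8a, C1ra, Vtn and Cfp), and those of C/EBP in 8. The PU.1 letters occurred in C1qc alone of the 20, and the interferon element in Cd59a alone.

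C6 divided by animal number and not by genotype. It was at 10.04, 9.82 and 10.00 in the lower numbers and at 9.38, 9.41 and 9.47 in the higher, a difference of 0.54, and its genotype difference was 0.15 ± 0.21 (-0.14 among the lower numbers, 0.07 among the higher). Mbl2 and C5ar1 were also apart by range, both lower in the lower numbers, by 0.15 and 0.25. These were 3 of 27 genes (11.1%) against 16.4% among all genes: 1 was higher in the lower numbers, against 8.09%, and 2 were lower, against 8.3%.

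The soluble regulators differed little between the groups. Serping1, which encodes C1 inhibitor, was at 12.37, 12.41 and 12.42 in wild-type and at 12.46, 12.53 and 12.48 in transgenic tumours. Vtn, which encodes vitronectin, a plasma protein that binds the nascent membrane attack complex, was at 13.12, 13.15 and 13.16 and at 13.24, 13.21 and 13.19. In both genes the groups did not overlap, yet the differences were only 0.09 ± 0.08 and 0.07 ± 0.07 (limma, adjusted p = 0.734 and 0.79). The second Vtn probe set differed by 0.01. C4bp, which encodes the alpha chain of the C4b-binding protein, differed by 0.07 ± 0.08, and Clu, which encodes clusterin, another inhibitor of the terminal complex, by 0.08 ± 0.08. The 4 Clu probe sets had positive differences, from 0.07 to 0.22, and the brightest is of the type that may bind related transcripts. All 5 soluble regulators were positive, with a median of 0.08 and no unadjusted limma p under 0.05.

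Among the membrane regulators and receptors, Cd55 had the largest difference, on a dim probe set. Cd55, decay-accelerating factor, was at 5.52, 5.22 and 4.99 in wild-type and at 5.63, 5.43 and 5.51 in transgenic tumours (0.28 ± 0.14, limma, adjusted p = 0.634), with 0.41 within the higher and 0.01 within the lower animal numbers, 0.42 without wild-type replicate 1 (an unadjusted limma p under 0.05) and 0.15 without wild-type replicate 3. Its second probe set differed by 0.09. Cd59a, which blocks C9 insertion, differed by -0.09 ± 0.09. C3ar1, the C3a receptor, was between 5.44 and 5.49 on all 6 arrays. C5ar1, the C5a receptor, was at 4.43, 4.65 and 4.63 in wild-type and at 4.22, 4.51 and 4.64 in transgenic tumours (-0.11 ± 0.13). Cd55, C3ar1 and C5ar1 are dim here, each with a mean under the median probe set at 5.83, and are left out of the fit without dim probe sets.

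Of 36 further genes listed (complement genes and their relatives, receptors, pentraxins and myeloid genes such as Cd5l and Mrc1), 23 were measured. Of these, 13 had a positive and 10 a negative difference, with a median of 0.07. Of these 23, 1 (Cd5l) had an unadjusted limma p under 0.05, against 8.33% of all genes in either direction and 3.86% higher in transgenic tumours. An adjusted p under 0.05 was reached by 0. Cd5l, which encodes a protein secreted by macrophages, was at 8.93, 8.58 and 8.57 in wild-type and at 8.94, 9.20 and 9.56 in transgenic tumours, with wild-type replicate 1 just below transgenic replicate 1 (0.54 ± 0.17, limma, adjusted p = 0.601). Vsig4, the complement receptor of Kupffer cells, was at 8.25, 7.49 and 7.70 and at 8.02, 8.37 and 8.41 (0.45 ± 0.20, limma, adjusted p = 0.618). It resembled the C1q chains in its range values, with 0.81 within the higher and -0.05 within the lower animal numbers. Other myeloid genes of that list differed less: Mrc1 by 0.03, Fcna by -0.07, Itgax by -0.10, Itgam by 0.12 and Itgb2 by 0.21. Apcs, the pentraxin serum amyloid P, had the widest spread, at 11.74, 9.62 and 10.97 in wild-type and 10.90, 11.87 and 9.75 in transgenic tumours (0.07 ± 0.64). Vsig4, Apcs and the other myeloid genes named were singled out after their values were seen.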

How the data were processed

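Total RNA had been extracted with Trizol and hybridized as biotin-labelled cRNA to Affymetrix arrays, per the labels' protocols. The deposited values are log2 levels that the authors made with RMA, per the submitters' processing notes; RMA in general corrects background, equalizes the arrays' distributions and summarizes each probe set. Its version and genome build are not given in the sources used here. Array medians differed by at most 0.0289 log2, so a change common to most genes cannot be seen in them. The 64 control probe sets were left out of 22690. Names came from the platform annotation, updated by gene ID through the RefSeq table of GRCm38.p6 (20351 of 20380 single-symbol probe sets matched). Probe sets with several symbols (691) named no gene.

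Groups came from the genotype labels, and replicates were numbered in accession order. No 2 arrays were identical (r between 0.987 and 0.993). Nothing says that mice were litter mates. The p-values set a difference of group means against the spread between these tumours, which limma moderates with the spread of all probe sets. Alb/AEG-1 minus wild type was fitted with limma 3.58.1 in R 4.3.3 (lmFit, eBayes, two-sided, 7.53 total degrees of freedom, Benjamini-Hochberg over all 22626 probe sets); intervals are 95% intervals of that fit. The fit was tested on simulated data. With 3 against 3 arrays an exact permutation test cannot go below 0.1, so none is given. C1q less macrophage markers was added after seeing the data. No set test was run.

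All 27 measured members were named. Genes of the further list were to be named where the unadjusted p was under 0.05, which Cd5l met. Vsig4, Apcs and the other myeloid genes named fall outside that rule and were picked with their values in view. The marker lists were used as fixed lists. The members and lists were chosen with earlier results of these data known. The fit was repeated with array weights, with a term for the range of animal numbers, without each array in turn, with a trend in the moderation or a robust one, after median centring or another quantile step, without dim probe sets, without those that may bind related transcripts, and on the mean of a gene's probe sets. Plots used matplotlib 3.10.9 in Python 3.11.15.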

Additional observations from a re-analysis of the deposited data

How the results depend on the processing

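The median difference of the macrophage-made genes (0.38) ranged from 0.24 (without wild-type replicate 2) to 0.52 (without wild-type replicate 1), that of the hepatocyte-made genes (0.07) from 0.02 (without wild-type replicate 1 or Alb/AEG-1 replicate 2) to 0.09 (without Alb/AEG-1 replicate 3), with 0.03 on the mean of all probe sets and 0.03 with the range as a term, and the gap between them (0.31) from 0.19 (without wild-type replicate 2) to 0.50 (without wild-type replicate 1), over all 15 alternatives. The count of members with an unadjusted limma p under 0.05 (2) was 1 once the range of animal numbers was a term and between 1 and 5 without any 1 array. Except without Alb/AEG-1 replicate 3, no share of all genes was taken in those fits, so the change in count has no background. The count over all probe sets at an adjusted limma p of 0.05 (1) was 2 with trend moderation, 2 with the mean of all probe sets, 0 with the range as a term, and 0 to 1 without any 1 array. Of 27 members, 10 changed sign in 1 or more alternatives and 17 in none. C3ar1 was 0.02 after quantile normalization and 0.01 after median centring, Masp2 -0.01 as the mean of its probe sets, and C6 -0.03 and C8a -0.09 with the range as a term. Without any 1 array, differences ran from -0.11 to 0.42 for C1s1, -0.23 to 0.02 for C2, -0.01 to 0.01 for C3ar1, -0.21 to 0.0049 for C5ar1, -0.10 to 0.24 for C8a, -0.16 to 0.06 for C8b, -0.08 to 0.06 for Cfb and -0.07 to 0.09 for Mbl1. The C1q mean difference (0.50) was 0.07 less the macrophage markers, an alternative chosen after seeing the data. The cause of these shifts was not tested. With dim probe sets left out, 24 members could be fitted. No paired analysis was possible because the replicate numbers follow accession order and pair no animals.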
